A study of Mus musculus with 8 samples.

Results

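The question addressed here was whether the tdTomato mark went with the same difference in RNA in cells of the 2 Foxp3 reporter alleles, GFP and Thy1.1. The measure was an interaction, computed for each gene: the difference between tdTomato-positive and tdTomato-negative cells among GFP cells, minus the same difference among Thy1.1 cells, on the log2 scale. A negative value means that marked cells stood lower, relative to unmarked cells, in GFP than in Thy1.1 cells, and a positive value the reverse. All 8 libraries of the series entered the comparison, 2 from each of 4 populations, and 13989 of 24108 named genes passed the filter on low counts and were tested. Of these, 62 genes had an interaction past the threshold, 49 lower and 13 higher.

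The cells were CD4 T cells from mouse mesenteric lymph nodes. All 4 populations came from mice of 1 genotype, given in the labels as Foxp3DTR-GFP/Thy1.1 CD4CreER/wt R26lsl-tdTomato/wt. One Foxp3 allele carried the diphtheria toxin receptor with GFP, the other carried Thy1.1, and the red protein tdTomato was produced only after a tamoxifen-dependent Cre, expressed from Cd4, had acted. The mice were bred and weaned on AVNM, an abbreviation that the labels do not resolve, with a diet defined in its amino acids. They then received tamoxifen and, for about 3 weeks, diphtheria toxin, and afterwards changed to chow and received fecal microbiota from SPF mice. Cells were sorted 12 days after colonization as tdTomato-negative Thy1.1, tdTomato-positive Thy1.1, tdTomato-negative GFP and tdTomato-positive GFP. "Marked" and "unmarked" stand below for tdTomato-positive and tdTomato-negative. The design text states that the mark was meant for CD4 T cells outside the thymus that lacked Foxp3. In the labels the toxin receptor belongs to the GFP allele alone, and they do not say which Thy1.1 cells already expressed Foxp3 when the mark was given. Reporter allele and sensitivity to the toxin thus go together in every library, and their parts in the interaction cannot be told apart. Age, sex and the number of animals are not given in the labels.

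Regulatory T (Treg) cells restrain immune responses and depend on the transcription factor Foxp3. Some Treg cells arise in the thymus, and others arise in peripheral tissue from conventional CD4 T cells, above all in the intestine in response to microbes and food. Neuropilin 1 (Nrp1) and Helios (Ikzf2) are widely used as markers of thymic origin, while peripherally induced Treg cells of the gut often carry activation and tissue-homing genes. Cells in lymph nodes that are at rest keep a programme of survival and lymphoid homing genes, which is turned down on activation.

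Each library held between 38085686 and 47908198 counts, with 14943 to 15863 genes detected, and the 2 libraries of a population correlated across genes on the log2 scale with r from 0.935 to 0.966. Cd4 (301 to 507 CPM, counts scaled by the TMM-adjusted size of each library) and Cd3e (965 to 1374 CPM), which define the sorted lineage, were present in all 8 libraries. The unmarked GFP library 3 held H2-Aa, a class II gene of antigen-presenting cells, at 34.0 CPM and Siglech, a gene of plasmacytoid dendritic cells, at 36.8 CPM. Elsewhere these reached at most 1.31 and 1.19 CPM. The 15 myeloid and dendritic markers summed to 354 CPM in that library and to 116 to 199 CPM in the other 7. Another of these markers, Lyz2, stood at 20.4 CPM there and at 21.9 CPM in the marked GFP library 3, against at most 3.01 CPM elsewhere. The 9 plasmacytoid dendritic markers summed to 522 CPM in the unmarked GFP library 3, to 640 CPM in the marked GFP library 3, and to 258 to 480 CPM in the others. In the marked GFP library 3, however, 4 of these 9 had 0 counts, Siglech among them, against 0 of the 9 in the unmarked GFP library 3. The 10 CD8 and NK cell markers summed to 135 CPM in the marked GFP library 3 and to 46.2 to 75.5 CPM in the other 7. What part such cells had in the interaction was not tested. The haemoglobin gene Hba-a2 stood at 29.5 CPM in the marked GFP library 3 and at most at 3.55 CPM elsewhere. None of the 8 marker lists for other cell types had a member with an interaction past the threshold, against 0.443% of all genes tested. The lists held 1 to 10 tested genes each, so 0 calls is near that share and says little about such cells. In such bulk libraries, fewer cells of a type and less RNA per cell cannot be told apart.

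The 62 genes with an interaction were 0.443% of all genes tested (edgeR's quasi-likelihood test, Benjamini-Hochberg adjusted p below 0.05). The 49 lower genes were 0.35% and the 13 higher genes 0.0929% of those tested. At an unadjusted p below 0.05 there were 1792 genes, and the median interaction over all genes was 0.03, with 52.3% of genes positive. Both parts of the interaction were also tested alone. Within GFP cells the mark went with 1768 genes past the threshold (12.6%), of which 873 rose (6.24%) and 895 fell (6.4%) in marked cells. Within Thy1.1 cells edgeR called 0 genes, with 1063 at an unadjusted p below 0.05. The other tools run on that comparison called 148 (DESeq2) and 0 (limma-voom). Both label tests in edgeR used the same spread for a gene, pooled over GFP and Thy1.1 libraries. Libraries of a population differed more in GFP cells. Their chi-square per degree of freedom was 77.88 (unmarked) and 80.17 (marked) in GFP cells, and 42.05 and 37.66 in Thy1.1 cells. The numbers of calls in the reporters thus do not compare the sizes of their label effects. What each reporter's own spread would give was not tested.

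**Figure D1:**
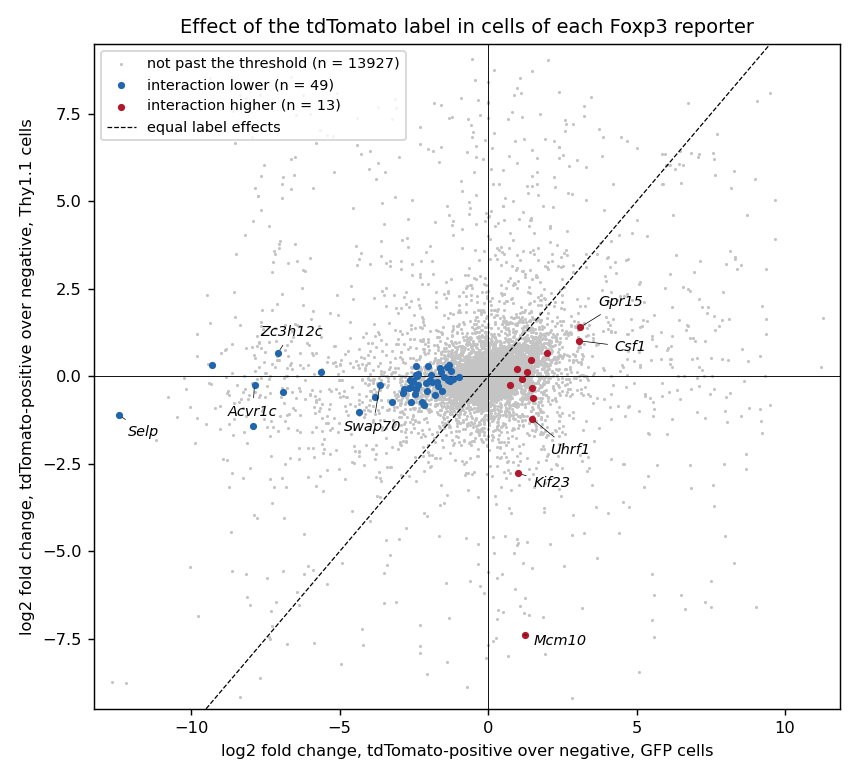
Each point is a gene, placed by its log2 fold change between marked and unmarked GFP cells (horizontal) and between marked and unmarked Thy1.1 cells (vertical). Blue points are the 49 genes with a lower interaction, red points the 13 with a higher one, and the dashed line marks equal label effects. Most coloured points lie far from 0 on the horizontal axis and near 0 on the vertical axis, with Mcm10 and Kif23 low on the vertical axis.

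The larger of the 2 label effects lay in GFP cells for 60 of the 62 genes and in Thy1.1 cells for the other 2, Mcm10 and Kif23, where it lay in GFP cells for 69.5% of all genes tested. All 49 lower genes also fell with the mark in GFP cells, with a median log2 difference of -2.37, and their median in Thy1.1 cells was -0.16, with values from -1.42 to 0.67. The Thy1.1 difference was smaller than 0.5 in size in 38 of the 49 (77.6%), a share near the 76.9% of all genes tested. Of the 13 higher genes, 11 also rose with the mark in GFP cells, where the median was 1.44. In Thy1.1 cells their median was -0.09. Leaving aside Mcm10, with 2 counts in marked Thy1.1 cells, the values ran from -2.77 to 1.41. The sign was opposite to that in GFP cells in 7 of the 13, against 35.9% of all genes. The marked GFP libraries lay below all 6 other libraries in all 49 lower genes, against 15.5% of all genes tested, and above all 6 in 12 of the 13 higher genes, against 19.3%. The genes were selected on these same libraries, so these counts describe them and test nothing. Unmarked GFP and unmarked Thy1.1 libraries did not overlap in 39 of the 62 genes, against 42.6% of all genes, with GFP cells lower in 23 and higher in 16. Marked and unmarked Thy1.1 libraries did not overlap in 46 of the 62, against 45% of all genes.

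The calls rested on each of the 4 Thy1.1 libraries. Without the unmarked Thy1.1 library 1 or 2, or without the marked Thy1.1 library 1, 0 genes passed, and without the marked Thy1.1 library 2 there was 1, Id3. The population with a library left out is then assumed to vary like the others. In these 4 fits all 62 genes kept their sign. The genes were selected on all 8 libraries, most of which enter each fit, so the kept signs describe them and test nothing. Without the unmarked GFP library 3, the one with H2-Aa and Siglech, 83 genes passed, and without the unmarked GFP library 4 only 27 did. Leaving out the marked GFP library 3 or 4 gave 119 or 89. Of the 62 genes, 22 passed without each of the 4 GFP libraries in turn, and all 22 were lower genes. Of the 62, 8 passed in none of the 8 fits with a library left out, 5 of the 13 higher genes and 3 of the 49 lower ones. The higher calls also depended on the settings, with 7 under RLE size factors, 7 without robust dispersion and 3 with limma-voom, where the lower calls numbered 48, 47 and 25.

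**Figure D2:**
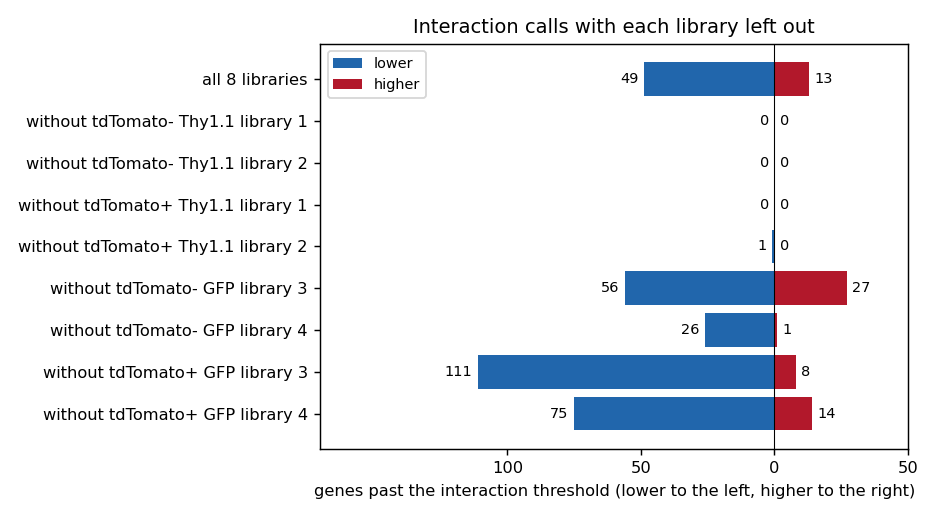
Bars count the genes past the interaction threshold, lower to the left in blue and higher to the right in red, with all 8 libraries (top row) and with each library left out. The top row shows 49 and 13 genes, and the 4 rows that leave out a Thy1.1 library show 0 or 1.

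Among genes associated with Treg cells of thymic origin, 4 of the 12 listed genes had a lower interaction (Swap70, Gata1, Zc3h12c and Nrp1), none had a higher one, and 9 of the 12 fell with the mark within GFP cells. Over all genes tested these shares were 0.35% and 6.4%. This list and those below were chosen with earlier results of these data known, so such counts describe the lists and test nothing. The median of the list was -1.85 for the interaction, -2.49 for the label in GFP cells and -0.06 for the label in Thy1.1 cells, against a median interaction of 0.03 over all genes.

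Nrp1, the semaphorin and VEGF co-receptor used to mark thymic Treg cells, had 558 and 471 CPM in unmarked and 578 and 435 CPM in marked Thy1.1 cells. In GFP cells it had 233 and 288 CPM unmarked and 90.6 and 94.4 CPM marked. The 4 Thy1.1 libraries overlapped by mark, all 4 GFP libraries lay below them, and the marked GFP libraries lay lowest. The interaction was -1.47 ± 0.23 (log2, ± SE, 2 libraries per population; edgeR adjusted p = 0.0478), made up of -1.50 in GFP and -0.02 in Thy1.1 cells. The single-gene 95% interval of the Thy1.1 difference ran from -0.39 to 0.35. The interaction of Nrp1 lay close to the threshold: with 1 library left out it passed in 1 of 8 fits (edgeR adjusted p from 0.0452 to 0.224, log2 from -1.72 to -1.32). With all libraries kept it did not pass with limma-voom (0.0821), a dispersion that was not robust (0.0549) or an odd against even block (0.0618).

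Swap70, an actin-binding regulator of cell shape and migration, was level across the Thy1.1 cells, with 96.0 and 114 CPM unmarked and 95.1 and 80.8 CPM marked. Unmarked GFP cells held 71.1 and 100.1 CPM and marked GFP cells 7.99 and 5.64 CPM. The interaction was -3.40 ± 0.32 (edgeR adjusted p = 0.0132), and only the marked GFP libraries stood apart from the other 6. Gata1, a transcription factor best known from the erythroid lineage, had 63.6 and 50.2 CPM in unmarked and 38.3 and 37.7 CPM in marked Thy1.1 cells. It had 30.1 and 48.4 CPM in unmarked and 3.23 and 2.34 CPM in marked GFP cells, with an interaction of -3.23 ± 0.39 (edgeR adjusted p = 0.0176). The marked GFP libraries, where Gata1 was lowest, were also those with the highest Hba-a2 levels. Zc3h12c, which encodes a member of the Regnase family of RNA-degrading proteins, had 482 counts in the unmarked and 3 in the marked GFP libraries, a ratio of 143 with a counting interval from 48.6 to 695. In Thy1.1 cells it was higher in the marked libraries, with 1008 counts against 623 (ratio 1.57, 1.42 to 1.74). These intervals cover counting error only. The fitted log2 difference in Thy1.1 cells had a 95% interval from -0.61 to 1.94 and did not pass (edgeR adjusted p = 0.853). The interaction of Zc3h12c passed the threshold (edgeR adjusted p = 0.0215), but with 3 counts in 1 population its fitted size is not informative.

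Helios (Ikzf2) did not pass in the main edgeR fit. Of 9 other settings that kept every library it passed in 1, DESeq2 (adjusted p = 4.00e-05). Its levels were 627 and 696 CPM in unmarked Thy1.1, 728 and 847 CPM in marked Thy1.1, 289 and 470 CPM in unmarked GFP and 183 and 128 CPM in marked GFP cells. As for Nrp1, GFP cells lay below Thy1.1 cells and marked GFP cells lowest. The unmarked GFP libraries lay far apart, and the interaction was -1.54 ± 0.34 (edgeR adjusted p = 0.131). With 1 library left out, Ikzf2 passed in 1 of 8 fits, without the unmarked GFP library 3 (edgeR adjusted p = 0.0431), and the adjusted p of the others reached 0.367. Ikzf2 fell with the mark within GFP cells (log2 -1.29, edgeR adjusted p = 0.0156).

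The second group of lower genes belonged to the resting, lymphoid-homing programme. Of 19 listed genes, 6 had a lower interaction and none a higher one, and 14 fell with the mark in GFP cells. Among all genes tested, 0.35% had a lower interaction and 6.4% fell. The list medians were -0.74 for the interaction, -1.19 in GFP and -0.45 in Thy1.1 cells. Bcl2, which protects cells from apoptosis, had 938 and 1144 CPM in unmarked Thy1.1, 670 and 837 CPM in marked Thy1.1, 805 and 1101 CPM in unmarked GFP, and 127 and 137 CPM in marked GFP cells. The interaction was -2.39 ± 0.25 (edgeR adjusted p = 0.0153), and the 2 unmarked populations overlapped. Id3, an inhibitor of E-protein transcription factors, was nearly level in 6 libraries, with 166 and 155 CPM (unmarked Thy1.1), 176 and 148 CPM (marked Thy1.1) and 160 and 173 CPM (unmarked GFP). Marked GFP cells held 33.7 and 28.7 CPM. The interaction was -2.42 ± 0.19 (edgeR adjusted p = 0.0129), and the label difference in Thy1.1 cells was 0.01, with a 95% interval from -0.29 to 0.31.

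Satb1, a chromatin organizer of T cell development, also had a lower interaction but was graded rather than level. It had 686 and 725 CPM in unmarked and 385 and 415 CPM in marked Thy1.1 cells, and 847 and 994 CPM in unmarked and 214 and 197 CPM in marked GFP cells. The 4 populations did not overlap, and the interaction was -1.34 ± 0.14 (edgeR adjusted p = 0.0161) on top of a Thy1.1 difference of -0.82 that did not pass its own test (edgeR adjusted p = 0.259). Bach2 and Lef1, transcription factors of resting T cells on the same list, were picked after their values were seen. Bach2 had an interaction of -1.50 ± 0.16, with label differences of -2.22 in GFP and -0.72 in Thy1.1 cells. Lef1 had -1.13 ± 0.13, with -1.55 and -0.42 (edgeR adjusted p = 0.0165 for either interaction). Ccr7, the receptor that guides naive T cells into lymph nodes, missed the threshold in the main edgeR fit (-1.02 ± 0.17, edgeR adjusted p = 0.0644). It passed in 6 of 9 other settings that kept every library. The adjusted p ran from 4.48e-06 (DESeq2) to 0.0717 (edgeR, dispersion not robust), and Ccr7 thus lay close to the threshold. It had 559 and 565 CPM in unmarked Thy1.1, 438 and 470 CPM in marked Thy1.1, 581 and 611 CPM in unmarked GFP and 207 and 270 CPM in marked GFP cells. With 1 library left out, Ccr7 passed in 2 of 8 fits, those without a marked GFP library, and the edgeR adjusted p ran from 0.0161 to 0.242.

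Of 13 tested genes typical of thymocytes and recent thymic emigrants, 3 had a lower interaction, against 0.35% of all genes tested. Satb1 was one of them. Itm2a, a membrane protein of developing T cells, differed between the unmarked populations too. It had 229 and 181 CPM in unmarked GFP cells, 99.0 and 99.1 CPM in unmarked Thy1.1, 79.1 and 74.0 CPM in marked Thy1.1 and 31.6 and 25.7 CPM in marked GFP cells. The GFP populations thus lay on either side of the Thy1.1 populations, with an interaction of -2.47 ± 0.22 (edgeR adjusted p = 0.0129). Ldhb, the lactate dehydrogenase subunit of resting cells, had 54.2 and 52.6 CPM in unmarked and 60.8 and 66.4 CPM in marked Thy1.1 cells. In GFP cells it had 35.1 and 37.6 CPM unmarked and 13.5 and 10.4 CPM marked (interaction -1.86 ± 0.24, edgeR adjusted p = 0.0228). Dntt and Cd8a, listed genes picked outside the rule for named genes, did not pass (edgeR adjusted p = 0.880 and 0.877). Their label differences were negative in both reporters, at -2.98 (GFP) and -1.89 (Thy1.1) for Dntt and -3.78 and -2.88 for Cd8a. Cd8a reached at most 7.15 CPM and is also a marker of CD8 T cells.

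**Figure D3:**
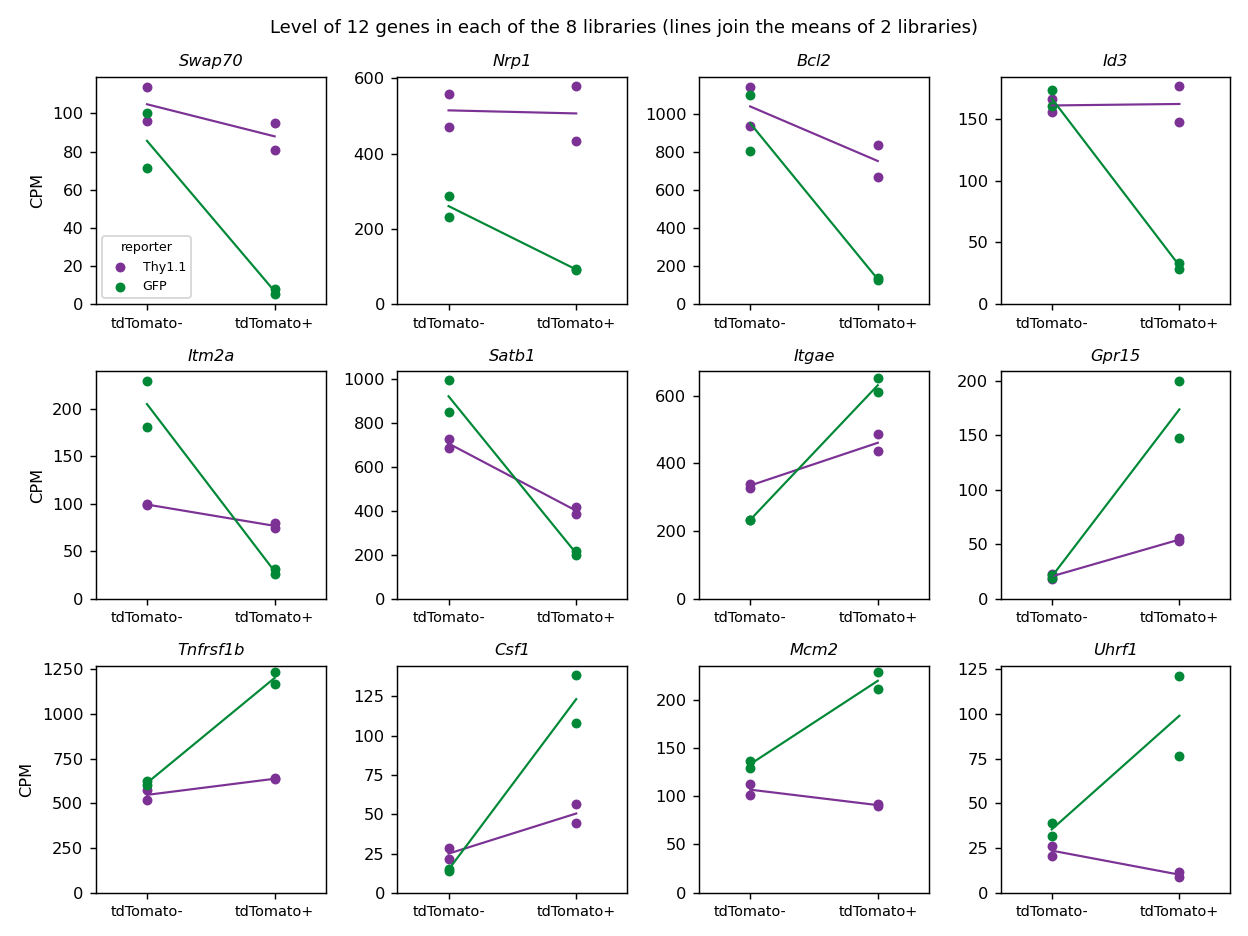
CPM of 12 genes in each of the 8 libraries, unmarked on the left and marked on the right of each panel, with Thy1.1 cells in purple and GFP cells in green and lines joining the means of 2 libraries. For Nrp1, Swap70 and Id3 the Thy1.1 line is nearly flat while the GFP line drops; for Gpr15 and Csf1 both lines climb and the GFP line climbs further; for Uhrf1 the lines part in opposite directions.

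Several lower genes outside the lists had the same layout. Cd81, a tetraspanin of the cell surface, had 116 and 106 CPM in unmarked and 119 and 125 CPM in marked Thy1.1 cells, against 71.9 and 73.5 CPM in unmarked and 24.8 and 24.1 CPM in marked GFP cells (interaction -1.71 ± 0.16, edgeR adjusted p = 0.0129). Mctp1, a calcium-binding membrane protein, had between 50.8 and 61.8 CPM in the 4 Thy1.1 libraries, 29.0 and 37.5 CPM in unmarked and 5.75 and 7.09 CPM in marked GFP cells (-2.44 ± 0.28, edgeR adjusted p = 0.0165). In both genes the marked Thy1.1 libraries reached the level of the unmarked ones, and all GFP libraries lay below. Aldh2, an aldehyde dehydrogenase of mitochondria, was instead highest in unmarked GFP cells (28.0 and 22.8 CPM), between 14.2 and 19.7 CPM in Thy1.1 cells, and lowest in marked GFP cells (5.17 and 4.27 CPM; -2.73 ± 0.34, edgeR adjusted p = 0.0194).

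Scml4, a Polycomb-related gene (-1.56 ± 0.14), St8sia6, a sialyltransferase (-1.65 ± 0.17), and Nsg2, which encodes an endosomal membrane protein (-2.32 ± 0.24), had the largest level of any marked GFP library at 59.7, 39.5 and 26.2 CPM. In the other 6 libraries their lowest levels were 180, 144 and 127 CPM. Treml2, a receptor of the TREM family, had 8.30 and 12.0 CPM in marked GFP cells and 59.5 to 107 CPM elsewhere (-2.50 ± 0.28). Cecr6 had 2.98 and 2.96 CPM in marked GFP cells and 21.8 to 72.3 CPM elsewhere (-3.35 ± 0.34). The edgeR adjusted p of these 5 interactions lay between 0.0129 and 0.0165. Airn, the long noncoding RNA of the imprinted Igf2r locus, had 53.5 and 46.2 CPM in marked GFP cells and 153 to 211 CPM elsewhere, with an interaction of -1.88 ± 0.16 (edgeR adjusted p = 0.0129). Igf2r itself was also among the 62 genes (-1.94 ± 0.22, edgeR adjusted p = 0.0165). Airn is transcribed antisense across part of Igf2r. The annotated exons of the pair did not overlap in GENCODE M21, and the library kit does not mark strand.

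A few lower genes were at or near 0 in marked GFP cells. Selp, the adhesion molecule P-selectin, had 1414 counts in the unmarked GFP libraries and 0 in the marked ones, which against a floor of 3 counts over the population is at least 419-fold lower. In Thy1.1 cells it was 562 counts unmarked and 268 marked, a ratio of 2.16 (counting interval 1.86 to 2.50), and the interaction had an edgeR adjusted p of 0.0165. Acvr1c, an activin receptor kinase, had 9.11 and 20.8 CPM in unmarked and 0.0677 and 0.0537 CPM in marked GFP cells, and 3.50 to 10.7 CPM in Thy1.1 cells (edgeR adjusted p = 0.0283). The 4 called genes with a mean under 5 CPM were Cdkn1c, Tcf7l2, Fam186b and 5430402O13Rik, and all were lower. They were chosen after their values were seen. Cdkn1c, a cyclin-dependent kinase inhibitor, went from 163 counts to 0 in GFP cells, at least 48.3-fold lower in marked cells, and was 337 unmarked against 439 marked in Thy1.1 cells. Tcf7l2, a transcription factor of the Wnt pathway, had 609 counts against 2 in GFP cells and 383 against 151 in Thy1.1 cells.

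The 13 higher genes included receptors and adhesion molecules of gut-homing and effector T cells. Of 14 gut-homing genes, 2 had a higher interaction, Gpr15 and Itgae, and none a lower one, with a list median of 0.42. The same 2 genes were the calls among 18 genes of intestinal Treg cells (list median 0.65), 16 of which had a positive value. Among all genes tested, 0.0929% had a higher interaction past the threshold and 52.3% had a positive value. Gpr15, a receptor that guides T cells to the large intestine, had 18.0 and 22.7 CPM in unmarked Thy1.1 and 21.6 and 18.6 CPM in unmarked GFP cells. Marked cells held 55.4 and 52.9 CPM in Thy1.1 and 199 and 148 CPM in GFP cells. The unmarked populations overlapped, and marked cells lay above them in both reporters and further above in GFP. The interaction was 1.70 ± 0.26 (edgeR adjusted p = 0.0478), made up of 3.11 in GFP and 1.41 in Thy1.1 cells. It passed in 5 of 9 other settings that kept every library. Exons of Gpr15 overlap those of Cpox on the other strand.

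Itgae, the integrin CD103 that binds E-cadherin of epithelium, had 341 and 328 CPM in unmarked and 486 and 436 CPM in marked Thy1.1 cells. It had 233 and 233 CPM in unmarked and 651 and 611 CPM in marked GFP cells. GFP cells were thus the lower reporter among unmarked cells and the higher one among marked cells, with an interaction of 0.98 ± 0.12 (edgeR adjusted p = 0.0194). Csf1, a growth factor of macrophages, had the same arrangement. It had 21.4 and 28.5 CPM in unmarked Thy1.1, 56.7 and 44.2 CPM in marked Thy1.1, 14.1 and 15.4 CPM in unmarked GFP and 138 and 108 CPM in marked GFP cells (2.05 ± 0.29, edgeR adjusted p = 0.0386). Tnfrsf1b, the tumour necrosis factor receptor TNFR2 of Treg cells, was the 1 call among 11 receptors of its family, against 0.443% of all genes tested. Its levels were 521 and 575 CPM in unmarked Thy1.1, 641 and 635 CPM in marked Thy1.1, 625 and 604 CPM in unmarked GFP and 1169 and 1235 CPM in marked GFP cells (0.75 ± 0.11, edgeR adjusted p = 0.0392).

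The other higher genes outside the cell cycle were Ehd4, Sgk1, Arl5a, Prg4 and Abcb1a. Ehd4, a protein of endocytic recycling, had 60.6 and 61.0 CPM in marked GFP cells and 11.8 to 22.9 CPM elsewhere (2.12 ± 0.25, edgeR adjusted p = 0.0175). Sgk1, a kinase controlled by serum and glucocorticoids, had 70.4 and 93.2 CPM against 18.5 to 31.0 CPM elsewhere (1.79 ± 0.27). Arl5a, a small GTPase of the Golgi, had 364 and 454 CPM against 169 to 202.5 CPM (1.22 ± 0.19), and Prg4, the secreted glycoprotein lubricin, had 250 and 273 CPM against 98.9 to 147 CPM (1.18 ± 0.18), although its exons overlap those of Tpr. Abcb1a, an efflux pump of the cell membrane, was the 1 higher gene in which marked GFP cells were not the highest. It had 74.9 and 87.3 CPM in unmarked Thy1.1, 130 and 126 CPM in marked Thy1.1, 17.4 and 22.0 CPM in unmarked GFP and 78.1 and 76.8 CPM in marked GFP cells. Its interaction of 1.31 ± 0.21 came with unmarked GFP cells far below the other 3 populations (edgeR adjusted p = 0.0478 for the last 4 genes). Sgk1 and Arl5a each passed in 5 of 9 other settings that kept every library, and Prg4 and Abcb1a each in 4.

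The remaining 4 higher genes act in the cell cycle: Mcm2, Mcm10 and Uhrf1 in DNA replication and Kif23 in cell division. Promoters of many cell cycle genes hold a CCAAT box, the site of the factor NF-Y, so the 250 bases before the start of these 4 genes are shown, from RefSeq on GRCm38.p6, read along the strand of the gene, with each CCAAT or, on the other strand, ATTGG in capitals. Kif23 lies at chr9:61946800-61947049 on the minus strand, Mcm10 at chr2:5012792-5013041 on the minus strand, Mcm2 at chr6:88898781-88899030 on the minus strand and Uhrf1, the first of 2 starts, at chr17:56303087-56303336 on the plus strand.
Kif23: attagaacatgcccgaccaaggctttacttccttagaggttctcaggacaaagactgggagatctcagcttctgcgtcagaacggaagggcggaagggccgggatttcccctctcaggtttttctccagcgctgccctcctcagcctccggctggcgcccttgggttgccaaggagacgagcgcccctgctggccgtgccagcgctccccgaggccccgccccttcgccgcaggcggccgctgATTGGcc
Mcm10: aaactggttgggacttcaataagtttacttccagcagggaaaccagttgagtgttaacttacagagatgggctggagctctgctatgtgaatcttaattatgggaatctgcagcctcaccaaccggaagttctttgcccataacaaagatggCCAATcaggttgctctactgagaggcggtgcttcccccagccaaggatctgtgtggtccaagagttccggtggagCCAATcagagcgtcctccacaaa
Mcm2: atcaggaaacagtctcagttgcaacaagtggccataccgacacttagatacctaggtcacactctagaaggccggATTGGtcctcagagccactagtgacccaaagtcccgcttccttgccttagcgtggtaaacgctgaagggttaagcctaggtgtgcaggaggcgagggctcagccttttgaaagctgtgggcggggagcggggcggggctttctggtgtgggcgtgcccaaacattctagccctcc
Uhrf1: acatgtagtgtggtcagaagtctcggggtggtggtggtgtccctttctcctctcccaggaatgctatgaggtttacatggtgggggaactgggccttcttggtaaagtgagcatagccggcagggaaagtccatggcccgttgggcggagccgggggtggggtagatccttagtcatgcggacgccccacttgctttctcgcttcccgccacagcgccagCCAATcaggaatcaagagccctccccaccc
All 4 windows hold the motif, Mcm10 at 2 places and the others at 1, where 33.9% of 32841 promoter windows of this length hold at least 1. This is a match of letters only, and binding was not measured.

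Mcm10, which loads replication factors at origins, was nearly silent in marked Thy1.1 cells. It had 5.21 and 2.90 CPM in unmarked Thy1.1, 0.0409 and 0 CPM in marked Thy1.1, 13.8 and 6.80 CPM in unmarked GFP and 27.5 and 20.7 CPM in marked GFP cells. In counts, Thy1.1 cells had 370 unmarked against 2 marked, a ratio of 190 (counting interval 52.3 to 1580), and GFP cells had 945 unmarked against 1987 marked, 2.36-fold higher in marked cells. The interaction had an edgeR adjusted p of 0.0165, while neither label difference passed alone (adjusted p = 0.259 in Thy1.1 and 0.163 in GFP cells). Kif23, a motor protein of cytokinesis, also had label differences of opposite sign in the 2 reporters. Its levels were 5.34 and 8.92 CPM in unmarked Thy1.1, 1.19 and 0.891 CPM in marked Thy1.1, 6.82 and 5.46 CPM in unmarked GFP and 13.6 and 11.3 CPM in marked GFP cells (3.80 ± 0.59, edgeR adjusted p = 0.0478).

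Uhrf1, which maintains DNA methylation after replication, had 20.8 and 26.4 CPM in unmarked and 11.5 and 8.78 CPM in marked Thy1.1 cells. In GFP cells it had 39.0 and 31.8 CPM unmarked and 121 and 76.6 CPM marked. The 4 populations did not overlap, and the interaction was 2.70 ± 0.37 (edgeR adjusted p = 0.0326), from 1.48 in GFP and -1.22 in Thy1.1 cells. Mcm2, a subunit of the replicative helicase, had 101 and 112 CPM in unmarked and 91.8 and 89.7 CPM in marked Thy1.1 cells, and 129 and 137 CPM in unmarked and 228 and 211 CPM in marked GFP cells (0.96 ± 0.15, edgeR adjusted p = 0.0478). Of 9 other settings that kept every library, Mcm2 passed in 4, Kif23 in 5, and Mcm10 and Uhrf1 each in 8.

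Across the cell cycle lists, the sign was uniform while few single genes passed. Among all genes tested, 52.3% had a positive interaction and 0.0929% a higher one past the threshold. All 26 listed genes of DNA replication had a positive interaction, with 3 past the threshold and a median of 0.83, and the median label difference was 0.97 in GFP and -0.0042 in Thy1.1 cells. All 26 genes of mitosis had a positive interaction, with 1 past the threshold (Kif23) and a median of 1.78, from 1.33 in GFP and -0.35 in Thy1.1 cells. Genes of these lists are transcribed together in dividing cells, so their signs are not independent. Mki67, the proliferation marker Ki-67, did not pass. It had 8.15 and 7.52 CPM in unmarked Thy1.1, 13.2 and 5.21 CPM in marked Thy1.1, 23.2 and 19.6 CPM in unmarked GFP and 48.4 and 54.5 CPM in marked GFP cells (1.03 ± 0.54, edgeR adjusted p = 0.464). The 2 marked Thy1.1 libraries spanned the unmarked ones.

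The other lists held few or no calls. As 0.443% of all genes tested were called, 0 calls in a list of this length is near that share. The Treg core list had 0 calls of 16 and a median interaction of -0.10, the suppressor effector list 0 of 16 with a median of 0.72, and the GATA3-associated tissue Treg list 1 of 14 (Itgae) with a median of 0.96. Lists of Th1-like (11 genes), Th2-like (8), Th17-like (13) and follicular (11) helper genes had 0 calls, with medians of 0.71, 0.69, 0.52 and 0.21. Of the suppressor list, 13 genes rose past the threshold with the mark within GFP cells, against 6.24% of all genes tested. Its median was 1.24 in GFP cells and 0.52 in Thy1.1 cells. The 17 early antigen receptor response genes and the 15 genes of NF-kB had 0 calls and medians of 0.12 and -0.12. The 17 genes of glycolysis, 22 of cholesterol synthesis, 15 amino acid transporters and 20 of the interferon response likewise had 0, with medians of 0.48, 0.28, 0.09 and -0.24. The 19 handling stress genes had 0 calls and a median of 0.14. Several lists share members, so their counts partly repeat the same genes.

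**Figure D4:**
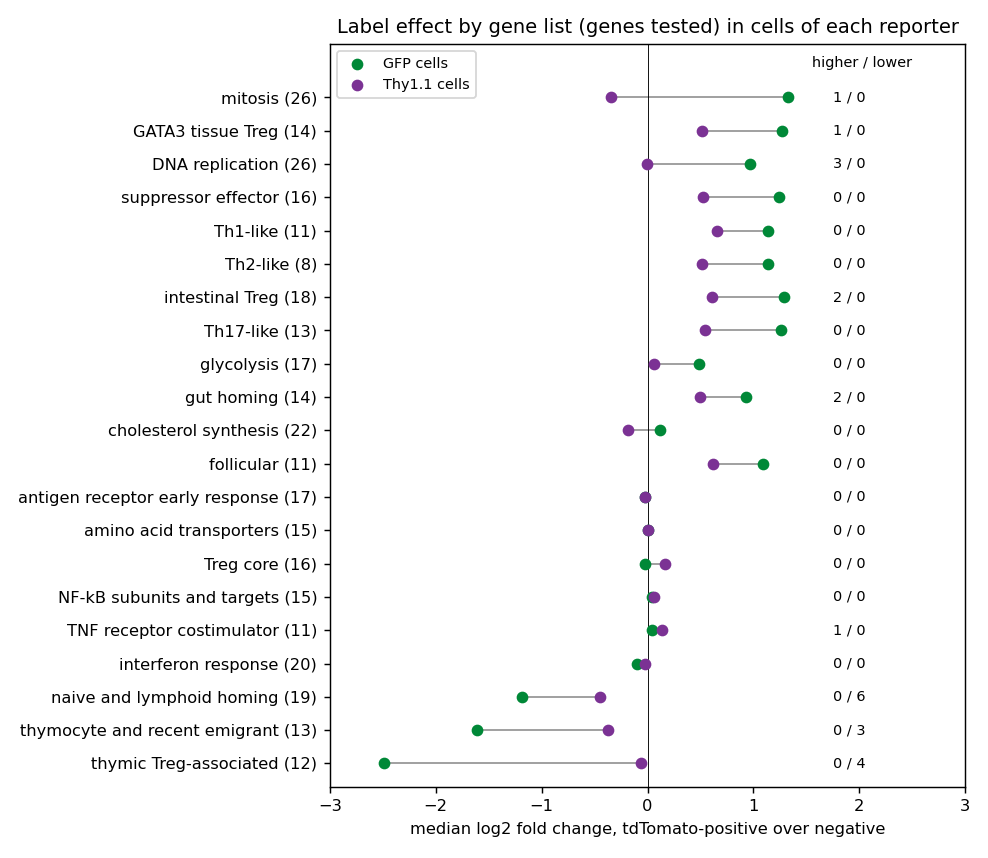
Median log2 fold change between marked and unmarked cells for each of 21 gene lists (number of genes tested in brackets), green for GFP and purple for Thy1.1 cells, ordered by the median interaction; the figures at the right give the genes with a higher and a lower interaction. The thymic Treg-associated list, at -2.49 in GFP and -0.06 in Thy1.1 cells, has the widest gap on the lower side, and the mitosis list, at 1.33 and -0.35, the widest on the higher side.

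Genes central to Treg identity and effector function showed how far the comparison reached. Foxp3 had 175 and 201 CPM in unmarked Thy1.1, 186 and 187 CPM in marked Thy1.1, 146 and 166 CPM in unmarked GFP and 126 and 141 CPM in marked GFP cells. Its interaction was -0.22 ± 0.17, with a 95% interval from -0.60 to 0.17 (edgeR adjusted p = 0.643). Foxp3 exons overlap those of Ccdc22, and the alleles of the 2 reporters cannot be counted apart here. Thy1 had an interaction of 0.17 ± 0.19 (edgeR adjusted p = 0.779).

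For the transcription factor Maf and the cytokine Il10, both known from intestinal Treg cells, the label differences were positive in both reporters. Maf had 34.8 and 38.1 CPM in unmarked Thy1.1, 79.5 and 84.1 CPM in marked Thy1.1, 137 and 74.9 CPM in unmarked GFP and 313 and 269 CPM in marked GFP cells. Its label difference was 1.46 in GFP and 1.17 in Thy1.1 cells, and the interval of the interaction ran from -0.51 to 1.09 (edgeR adjusted p = 0.793). Il10 had 7.37 and 15.5 CPM in unmarked Thy1.1, 34.9 and 26.6 CPM in marked Thy1.1, 56.8 and 33.8 CPM in unmarked GFP and 202 and 113 CPM in marked GFP cells. The differences were 1.80 and 1.43, and the interval ran from -0.98 to 1.71 (edgeR adjusted p = 0.855). These intervals are wide, and the Maf and Il10 differences within Thy1.1 cells did not pass their own test (edgeR adjusted p = 0.380 and 0.545).

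Klrg1, a receptor of terminally differentiated effector cells, had the largest positive value among the 13 genes named whatever their values. In the main edgeR fit it lay just outside the threshold, and it passed in 3 of 9 other settings that kept every library. It had 27.6 and 27.6 CPM in unmarked Thy1.1, 55.5 and 45.7 CPM in marked Thy1.1, 3.12 and 0.902 CPM in unmarked GFP and 144 and 56.1 CPM in marked GFP cells. Unmarked GFP cells thus lay below the range of the Thy1.1 cells. Among marked GFP cells, library 3 lay well above that range, while library 4 (56.1 CPM) was level with the marked Thy1.1 library 1 (55.5 CPM). The interaction of Klrg1 was 4.76 ± 0.79 (edgeR adjusted p = 0.0582). With 1 library left out, Klrg1 passed in 2 of 8 fits, without the unmarked GFP library 3 or the marked GFP library 4. Over the 8 fits the edgeR adjusted p ran from 0.0254 to 0.253 and the log2 interaction from 3.87 to 5.92. Il1rl1, the receptor for interleukin 33 on tissue Treg cells, had 9.39 and 5.06 CPM in unmarked GFP cells and 26.4 to 50.6 CPM in the other 6 libraries (1.86 ± 0.47, edgeR adjusted p = 0.169). Its unmarked GFP cells were the population that stood apart. The Il1rl1 interaction passed with DESeq2 (adjusted p = 0.0084), which was 1 of 9 other settings that kept every library.

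The checkpoint receptor Ctla4 had 362 and 348 CPM in unmarked Thy1.1, 429 and 460 CPM in marked Thy1.1, 641 and 471 CPM in unmarked GFP and 1264 and 1072 CPM in marked GFP cells (0.75 ± 0.21, edgeR adjusted p = 0.206). Gata3, the factor of type 2 responses, had 151 to 228 CPM in 6 libraries and 417 and 230 CPM in the marked GFP libraries (0.58 ± 0.33, edgeR adjusted p = 0.508). Tbx21, the factor of type 1 responses, had 3.64 to 10.0 CPM in 6 libraries and 18.3 and 19.9 CPM in marked GFP cells (1.31 ± 0.46, edgeR adjusted p = 0.304). All 3 rose with the mark within GFP cells (edgeR adjusted p = 0.00520, 0.0281 and 0.00629). In the main edgeR fit none of the 3 interactions passed. With DESeq2, Ctla4 passed (adjusted p = 0.0185), and Gata3 and Tbx21 did not (0.427 and 0.208).

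**Figure D5:**
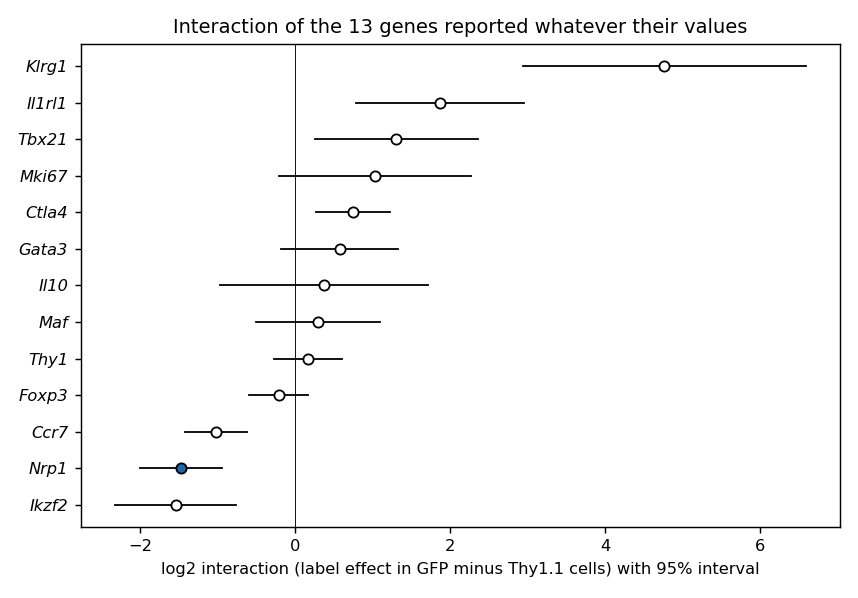
Log2 interaction of 13 genes named whatever their values, with single-gene 95% intervals not adjusted for the number of genes; filled points passed the threshold of adjusted p 0.05. Only Nrp1 is filled, the interval of Foxp3 runs from -0.60 to 0.17, and Klrg1 lies furthest to the right.

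Genes that differed with the mark in GFP cells mostly had the same sign in Thy1.1 cells, as did 64.1% of all genes tested. Of the 873 genes that rose with the mark in GFP cells, 84.9% had a positive difference in Thy1.1 cells, with medians of 0.82 and 0.21, and 11 of them (1.26%) had an interaction past the threshold. Of the 895 that fell, 85.3% had a negative difference, with medians of -0.97 and -0.24, and 49 (5.47%) had an interaction. The median ratio of the Thy1.1 to the GFP difference was 0.27 for the genes that rose and 0.23 for those that fell. The genes were chosen on the GFP difference, which enlarges it relative to the other. Over all 13989 genes the 2 label differences, which share no library, correlated with r = 0.13 and rho = 0.32, a description across genes that are not independent. No gene passed in both reporters with opposite signs, and since 0 genes passed within Thy1.1 cells the design could not show one.

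Overlapping genes limit some of these values. Exons of 17 of the 45 genes named by rule, and of 23 of the 62 with an interaction, overlap those of another gene in the GENCODE annotation. Swap70, Bcl2, Satb1, Cd81, Aldh2, St8sia6, Selp, Acvr1c and Zc3h12c overlap noncoding or predicted genes, and reads there were not separable by strand.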

How the data were processed

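Per the labels' protocols, RNA of sorted cells went through 12 cycles of SMART-Seq v4 amplification. Libraries were made with the KAPA Hyper Prep kit from 2 to 10 ng of cDNA (8 cycles) and sequenced as pairs of 50-nt reads. The authors deposited 1 table of whole-number read counts per gene, not normalized, per the file headers. The submitters' processing notes name DESeq without a version; the aligner, counter, annotation and build used are not given in those sources used here. Of 24116 rows, 8 had no gene name (0.0215% to 0.0264% of a library's counts) and were left out. GFP columns carry the numbers 3 and 4, and GFP sample titles 1 and 2, so these columns were matched to their population only and keep the table's numbers.

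Tests used R 4.3.3 and edgeR 4.0.16: expression filter at a minimum count of 10, TMM factors from 0.978 to 1.02, and a robust quasi-likelihood fit of 1 mean per population over 8 libraries, with 4 residual degrees of freedom and a common biological coefficient of variation of 0.399. P-values were Benjamini-Hochberg adjusted over 13989 genes at 0.05, standard errors were derived from the F statistic, and limma 3.58.1 and DESeq2 1.42.0 were alternatives. The pipeline was tested on simulated counts, with changes placed in marked GFP cells in 50 genes for each size of change. It called 78% of genes changed to 0.25 times, 22% at 0.5 times, 38% at 2 times and 84% at 4 times. It also called 12 genes that had not been changed. Smaller changes were thus mostly missed. Whether libraries came from separate animals is not given in the labels, and a p-value here measures only library-to-library spread, which may be technical. Counting intervals (95%) and floors of 3 counts (0.0626 to 0.0788 CPM per library) cover counting error only. The RefSeq tables gave promoters, and GENCODE M21, which held 97.4% of tested genes, gave exon overlaps.

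The comparison, the 30 gene lists (8 of markers) and the rule for named genes were chosen with earlier results of these data known. The rule named, among genes with a mean of at least 5 CPM that passed the threshold, the 10 largest and the 10 of smallest adjusted p in each direction, up to 5 in each direction with opposite passed label effects, up to 3 members of each list, and 13 genes whatever their values, leaving out unnamed gene models and receptor segments. Some genes are not reported here.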

Additional observations from a re-analysis of the deposited data

Results flagged for a closer look

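The difference between the label effects of the 2 reporters was tested directly by the interaction. The label effect was higher in GFP than in Thy1.1 cells for 13 genes and lower for 49 genes (edgeR adjusted p below 0.05). Rows with no gene name, which no comparison used, held at most 0.0264% of the counts of a library, in the unmarked GFP library 4.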

How the results depend on the processing

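The interaction count of 62 became 109 with no expression filter, 129 with a mean of at least 5 CPM required, 568 with DESeq2 and 28 with limma-voom. It stayed within 1.5 times with RLE size factors (55), library totals (86) and a dispersion that was not robust (54), but the higher calls fell from 13 to 7 with RLE factors and 7 without robust dispersion, and to 3 with limma-voom. Leaving out 1 library gave 0 to 119 calls, and 0 to 105 over the genes tested with all 8 libraries, an alternative chosen after seeing the data (15 without the unmarked GFP library 4). The GFP label count of 1768 became 2974 with DESeq2 and lay between 458 and 1801, or 438 and 1830 over fixed genes, without 1 library, lowest without the unmarked GFP library 4. Over fixed genes it was 1077 or 1098 without the unmarked Thy1.1 library 1 or 2, 929 or 950 without the marked ones, and 955 without the marked GFP library 3. The Thy1.1 label count of 0 became 1 with the 5 CPM filter and 148 with DESeq2. The cause was not tested. All 62 genes, which were selected on these same libraries, kept their sign in all 17 settings, and 25 passed in all 9 settings that kept every library.

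Deviations of same-numbered libraries correlated with r = 0.0509 and 0.0560, and those of populations with different numbers with 0.0325 to 0.0524. Each deviation is a single difference between 2 libraries, so these values cannot show whether same-numbered libraries were paired. The labels do not say what a number marks. With the column number as a replicate block there were 78 calls, 42 of them shared, and with odd against even numbers as the block 63, 46 of them shared.

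With 2 libraries per population, leaving out 1 left a single library whose spread was taken from the others. Genes with 3 counts or fewer in a population have no informative fitted size.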
